A study of Mus musculus with 20 samples.

Results

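Alas2 encodes the erythroid form of 5-aminolevulinate synthase, the mitochondrial enzyme that condenses glycine with succinyl-CoA in the committed step of heme synthesis. The gene lies on the X chromosome, is switched on by GATA1 as red cell precursors mature, and its mRNA carries an iron-responsive element in the 5' UTR through which iron regulates translation. Splicing removes an intron in a pair of reactions: the RNA is first cut at the 5' splice site, which leaves the upstream exon with a free 3' end, and this exon is then joined to the next one. A molecule caught between these reactions, cut and not yet joined, is a splicing intermediate, and its 3' end lies at the last base of an exon.

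The data are long reads of nascent RNA from murine erythroleukemia (MEL) cells, a mouse line arrested as red cell precursors that resumes maturation in dimethyl sulfoxide (DMSO). The uninduced group was left untreated and the induced group was kept in 2% DMSO for 5 days; both are wild type, and each holds 2 biological replicates run on 2 instruments (PacBio RSII and Sequel). RNA of both groups was taken from chromatin and depleted of polyadenylated and of ribosomal RNA. The deposited tables give 1 pooled line per intron and group, so no value here has a replicate error, and a test on these reads compares pools and not conditions. All 10 introns of Alas2 were taken by gene annotation, of 68794 introns in the first table. No measured value entered this rule, but earlier results of these data were known when it was set. All 10 were listed in both pools of the first table, and all 10 in the induced pool of the second, which holds 6537 introns in all; none was listed there in the uninduced pool.

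The first table counts spliced and unspliced reads, together called observations here, since a long read is counted again at each intron it covers. Observations numbered 416379 uninduced and 279371 induced. Of 10 erythroid marker genes, 8 had uninduced and 10 had induced reads, together 1960 and 29294 per 1000000 observations. Slc4a1 and Epb42, components of the mature red cell membrane, had no uninduced read. None of 5 myeloid markers had a read in either pool; of 4 lymphoid markers, 1 (Ptprc) had uninduced reads, 96 observations in all, and none had induced reads. How far these other cell type markers bear on Alas2 was not tested.

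The tabulated transcript, Alas2-201, spans 23264 bases on the forward strand of GRCm38 (chromosome X, 150547375 to 150570638) and has 11 exons. Intron 1 lies in the 5' UTR and introns 2 to 10 lie between coding exons. Intron 5 (150557409 to 150557938, 530 bases) interrupts codon 213 of 587, after its second base. It is shown here because nearly all splicing intermediates of the gene were found at it. The end of exon 5 is in capitals and the start of intron 5 in lower case, chrX:150557379-150557438 of GRCm38, forward strand, read from the GENCODE transcripts.
Exon 5 and intron 5: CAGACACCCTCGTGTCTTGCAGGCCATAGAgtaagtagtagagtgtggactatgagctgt

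A reader can compare its 5' splice site, where the first cut is made, with those of 3 other Alas2 introns. Introns 7 and 10 share its 6 intron bases, and intron 3 has the lowest deposited 5' score of the gene. Exon bases are in capitals.
Intron 5: AGAgtaagt
Intron 7: ATGgtaagt
Intron 10: TGGgtaagt
Intron 3: CAGgttgga

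The 3' splice sites of the same introns and of intron 9, which has the lowest 3' score of the gene, are given as 20 intron bases in lower case and 3 exon bases in capitals.
Intron 5: ttccactttcttggggccagGGA
Intron 7: tttgcctcggcttttctcagGTG
Intron 10: cttttcttcttccatttcagAGA
Intron 3: agttccatattccctatcagACC
Intron 9: gccctttcttttgagtccagGTG

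The splicing intermediates of Alas2 were concentrated at 1 intron. In the induced pool, intron 5 had 183 intermediates beside 54 spliced reads. The fraction of intermediates, NIC, is the number of intermediates divided by intermediates plus spliced reads, and it was 0.772 at intron 5 (Wilson 95% interval 0.715 to 0.821, counting error only). The other 9 introns had 27 intermediates in all, beside 1346 spliced reads. Intron 5 thus held 87.1% of the 210 intermediates of the gene.

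Intron 1 had no intermediate in 253 reads, which allows a NIC of up to 1.19%. NIC was 0.0110 at intron 2 (3 intermediates), 0.0252 at intron 3 (8 intermediates) and 0.00707 at intron 4 (2 intermediates). Across introns 1 to 4 the highest upper bound was 0.0490, at intron 3, so these introns were measured with narrow error. Beyond intron 5, NIC was 0.0308 at intron 6 and 0.0317 at intron 7, with 2 intermediates each. It was 0.0652 at intron 8, 0.0750 at intron 9 and 0.121 at intron 10, where the interval ran from 0.0482 to 0.273. The intervals of introns 6 to 10 overlapped one another, and none reached that of intron 5.

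**Figure D1:**
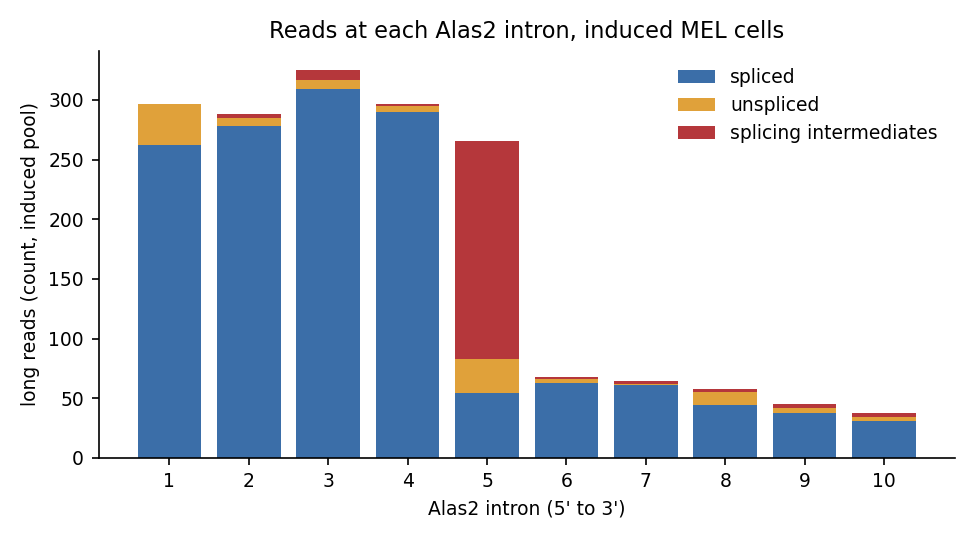
Count of long reads at each Alas2 intron in the induced pool (vertical axis), from the first intron to the tenth (horizontal axis), stacked as spliced reads, unspliced reads and splicing intermediates. Introns 1 to 4 stand between 288 and 325, intron 5 at 266 with 183 intermediates, and introns 6 to 10 between 38 and 68.

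Intermediates and spliced reads of each intron were set against those of the other introns of its gene by Fisher's exact test, two-sided, with Benjamini-Hochberg adjustment over all 2842 induced introns that could be tested. Of these, 2.85% passed an adjusted p of 0.05 (1.94% higher, 0.915% lower than the rest of the gene), and of the 10 Alas2 introns 5 did (1 higher, 4 lower). Intron 5 was higher than the rest of the gene, at 0.772 against 0.0197, with an adjusted p of 6.89e-156, the smallest of the table; this p counts reads as independent and holds no replicate error. Introns 1 to 4 were lower than the rest, which included intron 5, at 0 to 0.0252 against 0.155 to 0.157. When intron 5 was left out, an alternative chosen after seeing the data, 0 of the other 9 passed, and 3 had an unadjusted p under 0.05 by Fisher's exact test.

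Outside intron 5, NIC followed the position in the gene. Over the 9 other introns, Spearman's rho between NIC and intron number was 0.95 and Pearson's r 0.89, a description of introns that share reads and lie in order of falling depth, from 253 to 317 reads in introns 1 to 4 down to 33 in intron 10. With intron 5 included, rho was 0.78 and r 0.084.

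Set against all introns, the NIC of intron 5 was above that of 99.9% of the 1164 induced introns with at least 20 intermediates plus spliced reads. Only 7 of them, 0.601%, had a NIC of at least 0.5. Beside Alas2 these included intron 16 of Pkhd1l1, intron 6 of Hnrnpk, intron 5 of Srsf5, and introns 6 and 8 of Kel, with NIC from 0.587 to 0.750. The count of 183 was the highest of the pool. Their intervals overlapped that of Alas2 intron 5 at Pkhd1l1 intron 16 (0.632 to 0.840), Kel intron 6 (0.531 to 0.820), Kel intron 8 (0.473 to 0.836) and Srsf5 intron 5 (0.481 to 0.764), which had 22 to 64 reads.

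**Figure D2:**
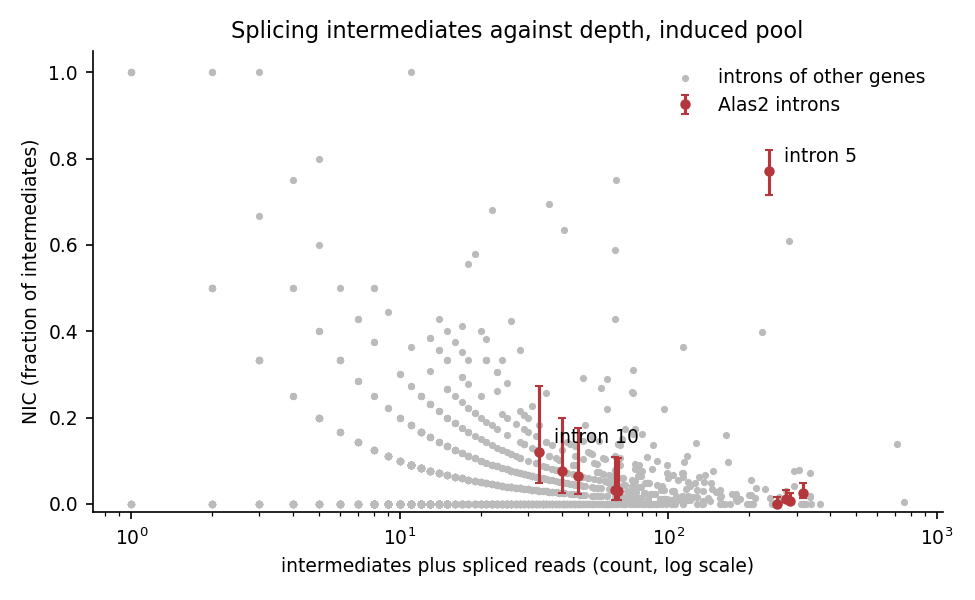
NIC of each induced intron (vertical axis) against its intermediates plus spliced reads (horizontal axis, log scale), with Alas2 introns in red with Wilson 95% intervals and introns of other genes in grey. Alas2 intron 5, at 0.772 on 237 reads, stands apart from the other Alas2 introns, all at or below 0.121.

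The concentration at a single intron was also compared between genes. Among 28 genes with at least 5 introns in the second table and at least 20 intermediates, the intron with most intermediates held a median of 33.3% of the gene's total. Alas2, at 87.1%, had the highest share of the 28. Genes near it by this share were Srsf5 (78.8%), Pkhd1l1 (62.3%), Hnrnpk (60.7%) and Narf (47.5%).

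A single intron weighed visibly in sums over the whole pool. Alas2 introns held 6.01% of all 3496 induced intermediates (interval 5.27 to 6.84%) and 1.82% of the spliced reads of the second table. Over all introns of the induced pool, the percentage of intermediates was 4.35 with intron 5 and 4.13 without it.

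The number of reads along the gene changed at the same place. In the induced pool, spliced plus unspliced reads numbered 297, 285, 317 and 295 at introns 1 to 4. They numbered 83 at intron 5, and then 66, 62, 55, 42 and 34 at introns 6 to 10. The 4 introns before intron 5 all had more reads than any of the 6 from intron 5 on. Intron 4 had 4.47 times the reads of intron 6. With its 183 intermediates added, intron 5 had 266 reads, 89.6% of the 297 at intron 4 counted the same way. The 183 intermediates exceeded the 29 unspliced reads of intron 5 in the first table, so most of them were not counted there as unspliced.

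A fall of this size between neighbouring introns was not rare in itself. Of 1749 induced introns with both neighbours listed and at least 20 reads at the intron before, 72, or 4.12%, had at least 4 times as many reads before as after, and Alas2 intron 5 ranked 58th. This ratio was chosen after the values were seen. Of the 72 introns, 39 were listed in the second table and 7 had a NIC of at least 0.5, against 19 of all 1749. No read minimum was set for NIC in this count, so these introns are not the same set as the 7 with at least 20 reads.

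Uninduced reads over Alas2 were few and showed no such step. They numbered 7, 6, 7 and 7 at introns 1 to 4, 5 each at introns 5, 6 and 7, and 7, 6 and 6 at introns 8 to 10. Intron 4 had 1.4 times the reads of intron 6. Whether this ratio differed from the induced one was not tested, since both introns can be covered by the same reads and the uninduced counts are under 10.

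All Alas2 introns had more nascent reads in the induced pool. Scaled to 1000000 observations, intron 1 had 16.8 uninduced and 1063 induced reads, a fold of 63.2 (exact 95% interval 30.3 to 159, counting error only). The fold was 70.8 at intron 2, 67.5 at intron 3 and 62.8 at intron 4. It was 24.7 at intron 5, 19.7 at intron 6, 18.5 at intron 7, 11.7 at intron 8, 10.4 at intron 9 and 8.45 at intron 10 (interval 3.51 to 24.6). All 10 introns were past a 4-fold gain, against 5.62% of 9329 introns compared. In these bulk samples, more cells with an active gene and more RNA per cell cannot be told apart.

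The median over the gene's introns, 22.2-fold, was the highest of 748 genes with at least 5 introns that had more than 3 reads in both pools. Genes outside this set could not be ranked: Slc4a1 had 0 uninduced and 817 induced reads, and Hba-a2, with 2 introns, had folds of 47.0 and 43.5. High values were also found, among genes named after their values were seen, at Ank1, an ankyrin of the membrane skeleton, at 13.9-fold, and Tfrc, the transferrin receptor, at 13.3-fold. Over all introns the median fold was 0.967. When scaled by the median ratio over introns instead, this median fell by 0.25 on the log2 scale, and all 10 Alas2 introns remained past the 4-fold gain, at 7.08 to 59.4.

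**Figure D3:**
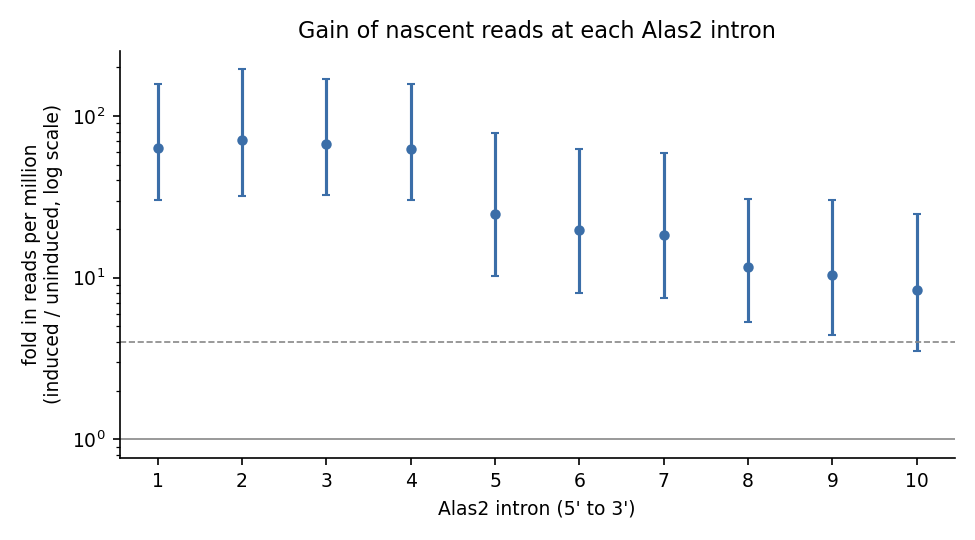
Fold in scaled observations, induced over uninduced, at each Alas2 intron (vertical axis, log scale), with exact 95% intervals for counting error; the solid line marks no change and the dashed line a 4-fold gain. Introns 1 to 4 lie between 62.8 and 70.8, and introns 5 to 10 between 8.45 and 24.7 with overlapping intervals. The intervals of introns 1 to 4 also overlap those of introns 5, 6 and 7. They lie above those of introns 9 and 10. The interval of intron 8 overlaps those of introns 1 and 4 only among the first 4.

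Most Alas2 introns were spliced in at least 0.882 of reads, and introns 5 and 8 in fewer. Co-transcriptional splicing efficiency (coSE) is the share of spliced reads among spliced plus unspliced reads. In the induced pool it was 0.975 at intron 2, 0.975 at intron 3 and 0.983 at intron 4, on 285 to 317 reads. Intron 1, in the 5' UTR, had 35 unspliced reads and a coSE of 0.882 (interval 0.841 to 0.914), and its interval lay below those of introns 2 to 4.

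Intron 5 had 29 unspliced reads and the lowest coSE of the gene, 0.651 (interval 0.543 to 0.744). Introns 6 and 7 stood at 0.955 and 0.984, intron 8 at 0.800 (interval 0.676 to 0.884), and introns 9 and 10 at 0.905 and 0.912. The interval of intron 5 overlapped that of intron 8 and no other. If intermediates are counted as unspliced, coSE of intron 5 was 0.203.

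By Fisher's exact test against the other introns of the gene, adjusted over 6034 induced introns with at least 10 reads, 6 of 10 Alas2 introns passed (3 higher, 3 lower), where 6.4% of all introns tested did (1.94% higher, 4.46% lower). Introns 2, 3 and 4 were higher (adjusted p 0.00997, 0.00667 and 0.000659). Intron 5 was lower, at 0.651 against 0.947 (adjusted p 9.46e-13), as were intron 1 (adjusted p 0.0115) and intron 8 (adjusted p 0.0186). With intron 5 left out, 3 passed: intron 4, still higher (adjusted p 0.0227), and introns 1 and 8, still lower (adjusted p 1.88e-05 and 0.00256). With intermediates counted as unspliced, intron 1 was higher than the rest instead (Fisher's exact test, adjusted p 0.0297), intron 7 passed as higher (adjusted p 0.0405) and intron 8 did not pass (adjusted p 0.706). The 6 introns that passed were then 5 higher and 1 lower, intron 5. With no read minimum, introns 1, 2 and 8 did not pass (adjusted p 0.0652, 0.0577 and 0.101).

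In the uninduced pool, 9 of the 10 introns had no unspliced read among 5 to 7, which allows an unspliced share of up to 60% at 5 reads and 42.9% at 7. Intron 8 had 2 unspliced among 7 reads, a coSE of 0.714 (interval 0.359 to 0.918). No Alas2 intron reached 10 reads in both pools, the minimum for comparing them, among 4403 introns compared of which 1.61% passed (0.363% higher, 1.25% lower in the induced pool). Without a minimum, 0 of 10 passed Fisher's exact test, where 0.0856% of 42074 introns did, and 0 had an unadjusted p under 0.05; the smallest unadjusted p was 0.167, at intron 5. A change in coSE of Alas2 on induction was not detectable at this depth. NIC could be compared between pools at 2039 introns, none of Alas2, and 0.0981% of them passed, all higher in the induced pool.

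**Figure D4:**
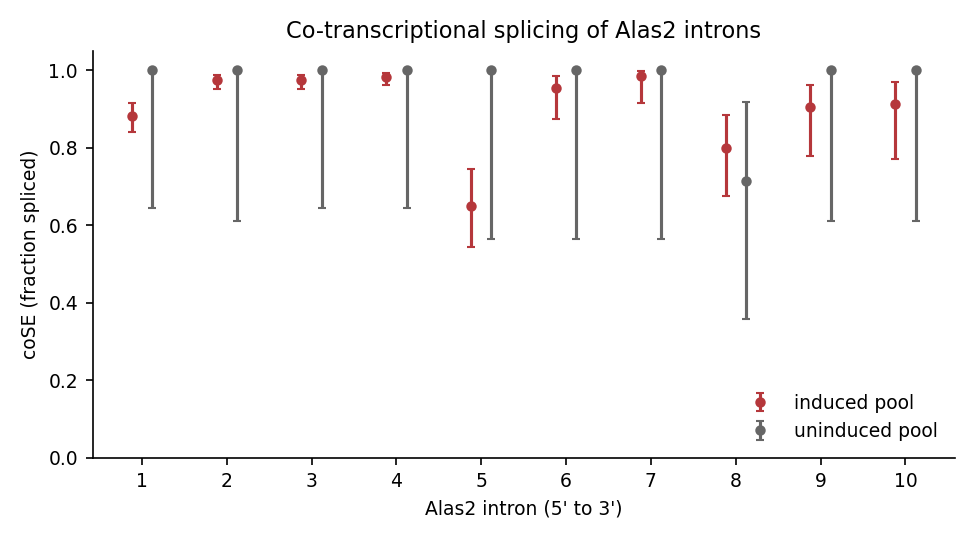
coSE of each Alas2 intron (vertical axis) in both pools, induced and uninduced, with Wilson 95% intervals. Induced values lie between 0.651 at intron 5 and 0.984 at intron 7; the uninduced intervals, on 5 to 7 reads, span most of the range of the induced values.

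By the deposited scores, intron 5 had a 5' splice site above the middle of the induced introns and a low 3' splice site. Its 5' score was 9.35, higher than 61.9% of the 3008 induced introns of the second table, and 3 Alas2 introns had lower ones. Its 3' score was 5.30, higher than 9.74% of these introns, and 1 Alas2 intron, intron 9, had a lower one, 4.34, with a NIC of 0.0750. Intron 3 combined a 5' score of 5.59 with a 3' score of 5.40, both low for the gene, and had a NIC of 0.0252. Among the 294 induced introns with a 3' score at or below that of intron 5, the mean NIC was 0.0659, against 0.0440 over all induced introns, and the median was 0 in both. A NIC of 0.5 was reached by 3 of the 119 with at least 20 reads, against 7 of 1164 over all induced introns. Without Alas2 intron 5 these counts were 2 of 118 and 6 of 1163, with means of 0.0635 and 0.0438; the difference was not tested.

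**Figure D5:**
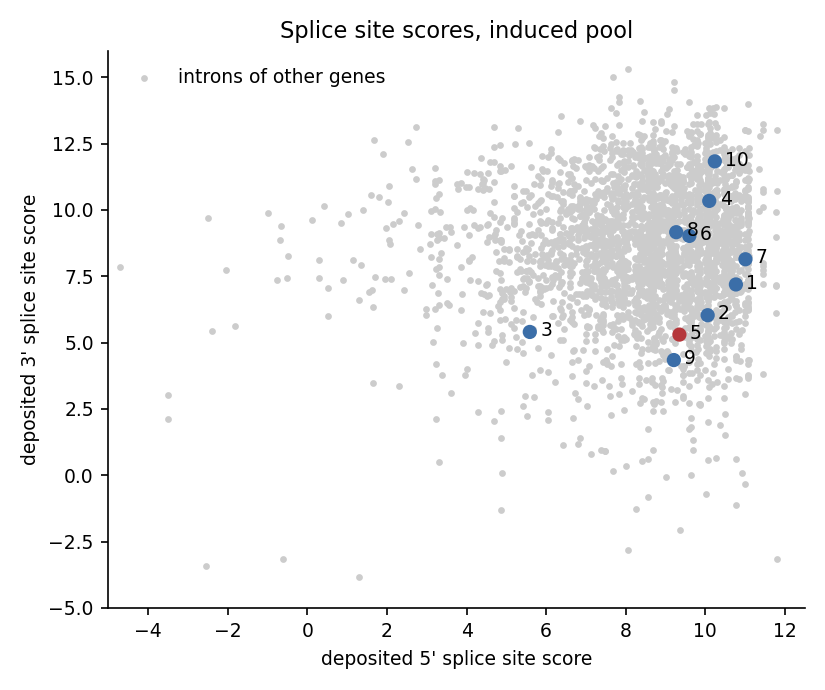
Deposited 3' splice site score (vertical axis) against deposited 5' splice site score (horizontal axis) for induced introns, with Alas2 introns numbered, intron 5 in red and the others in blue; 10 introns of other genes fall outside the axes. Intron 5 lies at 9.35 and 5.30, close to intron 9 at 9.21 and 4.34.

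Exon 5 ends in A, whereas the exons before the other 9 Alas2 introns end in G, as the printed sites show for introns 3, 7 and 10. Exons ending in A preceded 8.98% of induced introns, with a mean NIC of 0.0430, or 0.0402 without Alas2 intron 5, against 0.0434 after exons ending in G. The 6 intron bases gtaagt, shared by introns 5, 7 and 10, were found at 404 induced introns with a median NIC of 0; within Alas2, NIC ranged from 0.0317 to 0.772 among those with them. All 9 bases of the 5' site of intron 5 were found at 3 other induced introns, which had no intermediate in 32 reads, and at 17 uninduced introns, which had 7 intermediates in 240 reads and a NIC of at most 0.125.

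At the 3' end, 13 of the last 20 bases of intron 5 were pyrimidines, within the range of 12 to 17 over the 10 introns. Intron 5 was the only one of the 10 with as many as 5 guanines there. Its length of 530 bases was the shortest of the gene, against a median of 812 over all induced introns, and its GC content was 41.9% against a median of 44.9%.

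The other enzymes of heme synthesis were read for comparison. Of 8 enzyme genes, 5 had an intron with at least 10 induced reads. Alad, which makes porphobilinogen, had 11 introns with coSE from 0.558 to 1 and a NIC of at most 0.292. Ppox, the protoporphyrinogen oxidase, had a NIC of at most 0.333, at introns 3 (6 of 18 reads) and 4 (2 of 6 reads). Urod, the uroporphyrinogen decarboxylase, had a NIC of at most 0.0714. Fech, which inserts iron into protoporphyrin, had 1 induced intron in the second table, without intermediates in only 3 reads. In the uninduced pool the same intron had 2 intermediates and a NIC of 0.4. Alas1, the housekeeping counterpart of Alas2, had at most 8 reads at an intron.

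Among strongly induced red cell genes, Slc4a1, the anion exchanger, had 19 introns with a NIC of at most 0.280. Hba-a1 and Hbb-bs, globin genes with 2 introns each in the induced pool, had NIC of at most 0.140 and 0.0292. Their near-identical copies Hba-a2 and Hbb-bt, among which reads may be split, had higher values at intron 2, 0.399 (89 of 223 reads) and 0.311 (23 of 74 reads). The interval of Alas2 intron 5 lay above all of these values.

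Over 28 genes of heme synthesis, iron supply, iron sensing and erythroid transcription, 61 introns of 9 genes had at least 10 reads in both pools. Of these, 1 passed and was higher in the induced pool, against 1.61% of all introns tested, and the median difference in coSE was 0 in the list and over all introns. It was intron 5 of Tfrc, named after its value was seen, with a coSE of 0.412 on 17 uninduced reads and 0.810 on 168 induced reads (Fisher's exact test, adjusted p 0.0485). With no read minimum, over 42074 introns, it did not pass (adjusted p 0.422).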

How the data were processed

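Of 20 samples, the 8 long-read samples of wild type cells were used, through both deposited tables, with 1 pooled line per intron and condition; 12 samples were not analysed here. That each condition line pools these samples is inferred from the condition names. The deposited tables give raw counts of spliced and unspliced reads, counts of intermediates, the fraction NIC, a GC percent and splice site scores, per the file headers, and the intron length. cutadapt, minimap2, SAMtools and bedtools and the build mm10 are named in the submitters' processing notes; the counting rule, the scoring program and how intermediates were recognised are not given in the sources used here. NIC equalled the ratio of intermediates to intermediates and spliced reads together in all lines. The spliced count of the second table was equal to that of the first at 4 Alas2 introns and lower by 1 to 9 at the other 6.

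Transcripts were given symbols, intron numbers and regions from GENCODE mouse release 21 (GRCm38); all 8397 had a symbol. Positions are 1-based, with 2 added to the deposited start and 1 taken from the end. Tests were two-sided Fisher's exact tests (scipy 1.17.1) with Benjamini-Hochberg adjustment over all introns tested, threshold 0.05, minimum 10 reads for coSE and none for NIC. Read gains had no test: introns with at least 10 reads in 1 pool and more than 3 in both were called at 4-fold. Intervals for shares are Wilson 95%, those for folds exact, and the limit for a count of 0 is 3 counts; all cover counting error only, since molecular identifiers were not known to be used. Fisher's test was tested on simulated data: with 200 introns set to a share of 0.4, it recovered 95% among 6034 introns for coSE within genes, 93.5% among 2842 for NIC and 99.5% among 4403 between pools. The changed introns were drawn only from introns deeper than the minimum of 10 reads, and the reads of each intron were drawn independently. Recovery at shallow introns, or with reads shared between introns, was therefore not measured. In genes with a changed intron, 1.65% of unchanged introns were also called for coSE and 6.53% for NIC. Members and lists were chosen with earlier results of these data known. Named beyond Alas2 were induced introns with at least 20 reads and NIC of at least 0.5, the 5 genes nearest in the share held by their top intron (some items that these rules name are not reported here), introns with the same 5' site, heme enzyme genes, Slc4a1, Hba-a1 and Hbb-bs. Alternatives were other read minimums, the chi-square test, other denominators and scalings, and leaving out intron 5.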

Additional observations from a re-analysis of the deposited data

How the results depend on the processing

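No paired analysis was possible because replicates were added together before deposit, and no replicate could be left out for the same reason. Intron 5 of Alas2 kept its direction and its call under each alternative run, with a coSE of 0.203 to 0.651 and a NIC of 0.688 to 0.772. Without a read minimum, 3 Alas2 introns passed for coSE within the gene in place of 6. Between pools, 36 introns of the whole table passed in place of 71, and 0 of the heme list in place of 1. More introns were then tested. An unadjusted p under 0.05 by Fisher's exact test was found at 8 of 182 introns of the heme list, against 736 of 42074 over all introns. With intron 5 left out, 3 introns passed for coSE and 0 for NIC, and intron 3, at a NIC of 0.0252, was above the rest of the gene and no longer past the threshold; the rest then lacks intron 5. With intermediates counted as unspliced, intron 1, at 0.882, was above the rest of the gene. Scaled by the median ratio, 331 introns were past the 4-fold gain in place of 524. With at least 20 reads, Alas2 held 7.93% of intermediates in place of 6.01%, over fewer introns. Depth limits the uninduced values, at 5 to 7 reads an intron.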

Other observations

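GENCODE lists a further Alas2 transcript, Alas2-203, of the retained intron type, that runs through exon 5 and ends 255 bases into intron 5, at position 150557663; the tables give no count for it. Intron 2 as tabulated is present in 1 of the 2 annotated transcripts that span it; reads spliced at the other annotated 3' site were not analysed here.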
